A study of Rattus norvegicus with 21 samples.

Results

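The transcripts of the rat mitochondrial genome were taken as every entry that the count table places on the chromosome named MT, 37 of 28914 entries. Of these, 13 carry the symbols of the respiratory chain proteins encoded in mitochondria. The remainder have no gene symbol in the table: 2 entries of 958 and 1571 bp are of the size of ribosomal RNA genes, and 22 entries of 60 to 75 bp are of the size of transfer RNA genes. These are named below by length only. The RNA, labelled polyadenylated, came from the islets of Langerhans (the endocrine part of the pancreas) of Lewis rats that the labels call 4 to 5 weeks, without saying from when. The PX group (11 libraries) had lost 90% of the pancreas 4 weeks earlier (partial pancreatectomy) and the sham group (10 libraries) had had a sham operation. The labels name no other treatment or allele in either group. The study set out to learn what high blood glucose does to islet cells. Each title carries an animal number, by which the libraries are called here, and an average BG before sacrifice without a unit. Beyond that number the labels do not say that each library is a separate animal, and p-values reflect library-to-library spread, which may be technical.

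The mitochondrial genome is a small circular DNA kept in many copies per cell. Both of its strands are transcribed into long precursors, which are cut into ribosomal, transfer and messenger RNAs. Its proteins are core subunits of respiratory complexes I, III and IV and of the ATP synthase (complex V), and all other subunits of these complexes come from nuclear genes. In beta cells the ATP made by this chain links glucose breakdown to insulin release.

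Total counts ran from 4001908 to 13187959 per library, and the mitochondrial counts from 65709 to 625556. The 9 beta cell markers found in the table took 13.5% ± 2.70 of the counts in sham (SD, n = 10) and 11.8% ± 3.87 in PX (SD, n = 11). The alpha cell markers took 1.49% ± 0.801 and 1.01% ± 0.627, the delta cell markers 0.111% ± 0.0319 and 0.0409% ± 0.0131, and the erythroid markers 0.00408% ± 0.00097 and 0.00967% ± 0.00527, sham first in each case. The 30 acinar (enzyme-secreting) markers took from 0.655% to 24.2% of the counts in sham and from 6.38% to 51.5% in PX. The 17 macrophage markers took from 0.00565% to 0.0185% in sham and from 0.0247% to 0.171% in PX, with every PX library above every sham library, and the 10 mesenchymal markers from 0.0227% to 0.0912% and from 0.0614% to 0.326%. No macrophage or mesenchymal marker found in the table was at 0 in any library. In bulk RNA, fewer cells of a type and less RNA per cell cannot be told apart. The libraries sham 46 and PX 44 stood apart from their groups. Sham 46 had the lowest level of the sham group for 12 of the 13 protein-coding transcripts and the highest macrophage share of that group. PX 44 had the highest level of the PX group for 7 of the 13, the lowest macrophage share of that group and the lowest BG of the PX animals, 101. Values without both libraries are given beside some of the main results. Both were picked after seeing these mitochondrial values, so leaving them out can widen group differences by the choice itself. The p-values and counts without them are therefore no independent support.

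The mitochondrial genome took a smaller part of the RNA after pancreatectomy. Its share of all counts was 1.42% at the lowest, 4.59% at the median and 6.24% at the highest in sham, and 1.39%, 2.78% and 5.58% in PX. Of the PX libraries, 9 of 11 lay below the sham median, but the ranges overlapped almost fully because sham 46 was the lowest sham library and PX 44 the highest PX library. The means were 4.34% ± 1.28 (SD, n = 10) and 2.91% ± 1.30 (SD, n = 11), a difference of -1.43 percentage points (two-sided permutation test, p = 0.021, Benjamini-Hochberg adjusted p = 0.048 over 16 library measures). Without sham 46 and PX 44 the means were 4.66% ± 0.810 (SD, n = 9) and 2.64% ± 0.9996 (SD, n = 10), with an adjusted p = 0.00065 by an exact permutation test. Those libraries were left out after seeing them at the contrary ends of this share, which by itself widens the difference. The lower p is therefore no added support. Counts on acinar genes enter the total of this share. With the acinar markers left out of the total the shares were 4.84% ± 1.23 and 3.58% ± 1.25 (SD, n = 10 and n = 11; adjusted permutation p = 0.054). Among the 5 sham and 7 PX libraries whose acinar shares overlapped, the share was 3.56% ± 1.30 in sham and 3.47% ± 1.29 in PX (SD; exact permutation p = 0.92). In that subset the acinar share, which enters the total, was higher in sham, 19.6% ± 4.09 against 13.2% ± 4.78 in PX (SD, n = 5 and n = 7; exact permutation p = 0.043), the reverse of the order over all libraries. The subset holds both sham 46 and PX 44, and without them its means were 4.09% ± 0.593 (SD, n = 4) and 3.12% ± 0.987 (SD, n = 6; exact permutation p = 0.12). The animal numbers fall into runs that each hold 1 group. The share was 4.63% to 6.24% in sham 21 to 24, 1.64% to 5.58% in PX 36 to 44, 1.42% to 4.55% in sham 46 to 50, 1.39% to 3.49% in PX 57 to 70 and 4.71% to 4.73% in sham 73 and 74, so group and run cannot be told apart.

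**Figure D1:**
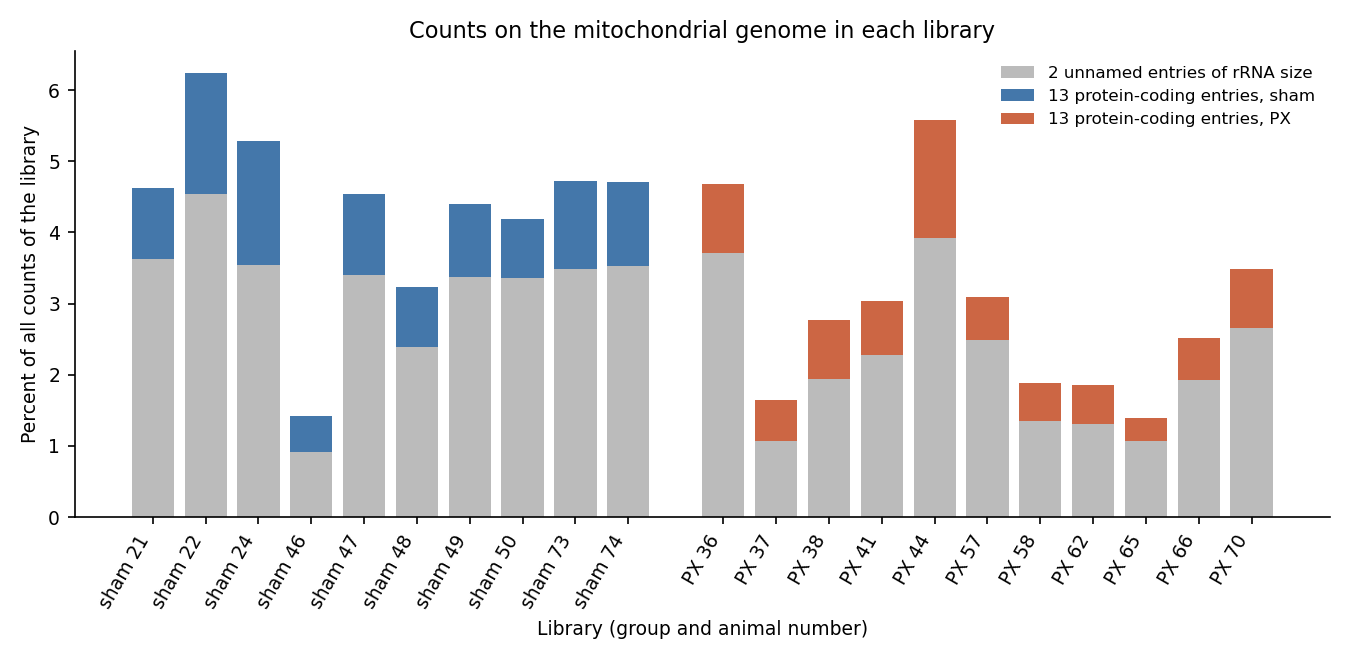
Percent of all counts on the mitochondrial genome in each of the 10 sham and 11 PX libraries, split into the 2 entries of rRNA size (grey) and the 13 protein-coding entries (colour); the tRNA-sized entries are too small to see. Sham 46 reaches 1.42% and PX 44 reaches 5.58%, each at the far end of its group.

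The 2 entries of ribosomal RNA size held 74.4% of all mitochondrial counts, although the RNA was labelled polyadenylated, the protein-coding entries 25.6% and the 22 transfer-RNA-sized entries 0.0285%. The ribosomal-RNA-sized part of the mitochondrial counts was 73.7% ± 4.85 in sham and 73.7% ± 4.62 in PX (SD, n = 10 and n = 11; permutation p = 1). The protein-coding entries alone took 1.12% ± 0.381 of all counts in sham and 0.751% ± 0.351 in PX (SD, n = 10 and n = 11; adjusted permutation p = 0.054).

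Levels per length differed widely between the protein-coding transcripts. In sham, Mt-co2 and Mt-co1, the catalytic core of cytochrome c oxidase, had the highest levels, 3312 ± 728 and 2656 ± 756 CPM per kb (CPM being counts scaled to the library total and its TMM factor) (SD, n = 10). Mt-co3, of the same complex, followed at 1375 ± 479 CPM per kb, then Mt-atp6 at 671 ± 287, Mt-cyb at 595 ± 223 and Mt-nd3 at 490.3 ± 215. Mt-nd5 (275 ± 112), Mt-nd2 (259 ± 123), Mt-atp8 (217 ± 90.0) and Mt-nd4l (217 ± 92.7) lay within 1 SD of each other, as did Mt-nd1 (141 ± 59.2) and Mt-nd4 (135 ± 58.7). Mt-nd6 was lowest at 105 ± 24.6. In PX the order was the same at the top, with Mt-co2 at 3433 ± 1553 and Mt-co1 at 2219 ± 979 CPM per kb (SD, n = 11). At the low end Mt-nd6, lowest in sham, had 152 ± 45.0 CPM per kb in PX, above Mt-nd5, Mt-nd2, Mt-atp8, Mt-nd4l, Mt-nd4 and Mt-nd1, whose PX means ran from 70.4 to 139. The unnamed entries of 1571 and 958 bp had 14498 ± 4771 and 6506 ± 2396 CPM per kb in sham.

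**Figure D2:**
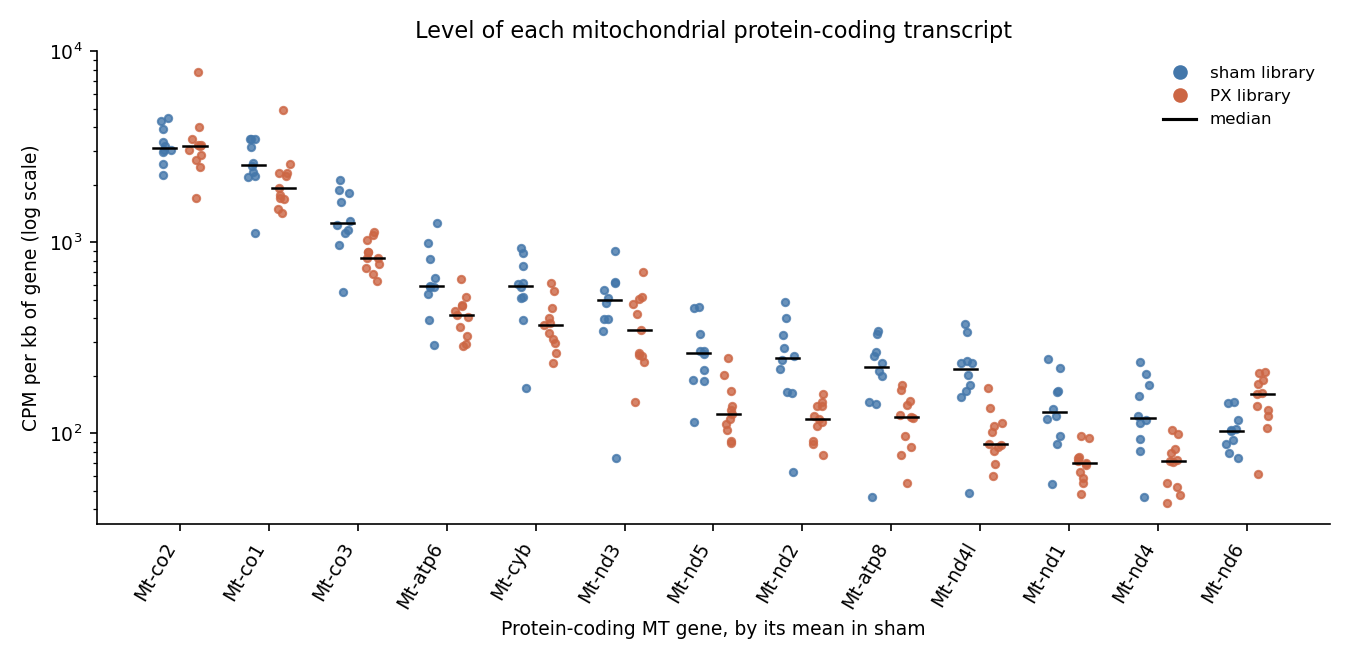
CPM per kb of the 13 protein-coding transcripts (log axis) in each sham library (blue) and PX library (orange), with the median of each group as a black line, in the order of the sham means. Mt-co2 and Mt-co1 sit at the top, and Mt-nd6, the lowest by its sham mean, is the 1 transcript at the low end whose PX points lie mostly above its sham points.

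Transcript by transcript, PX was compared with sham by edgeR's quasi-likelihood test on the counts of all 13136 genes that passed the low-count filter. Of the mitochondrial entries 17 passed it: the 13 protein-coding transcripts, both of ribosomal RNA size and 2 of transfer RNA size. After Benjamini-Hochberg adjustment over all genes, 9 of the 17 were lower in PX, 1 was higher and 7 did not pass, where 16.2% of all genes tested were lower and 14.9% higher. The median log2 fold change was -0.67 over the 13 protein-coding transcripts and -0.04 over all genes tested. All 9 lower transcripts are encoded on the plus strand of the table, and the higher one, Mt-nd6, is the only protein-coding entry on the minus strand. In no entry did the groups separate fully, and over all genes tested this occurred in 204 genes upward and 19 downward. Without sham 46 and PX 44, a choice made after seeing the data, 12 were lower and 1 higher. In that fit 18.3% of all genes were lower and 22.1% higher.

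**Figure D3:**
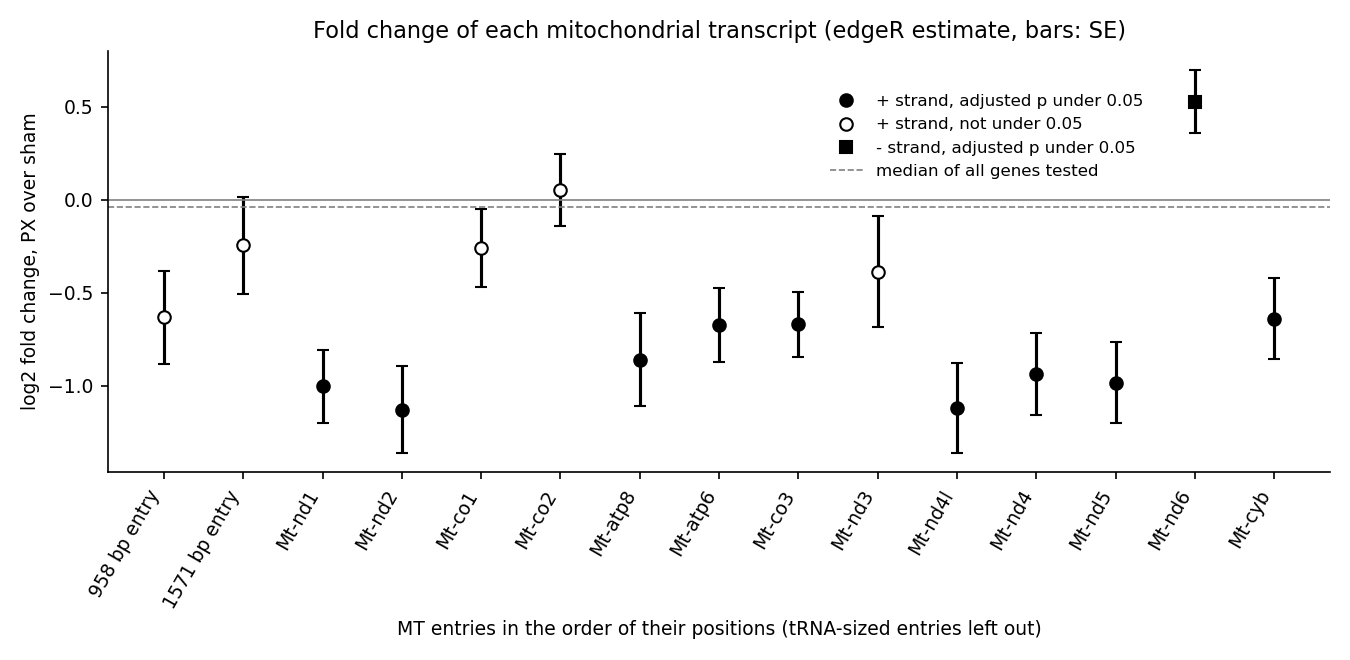
Log2 fold change of PX over sham with its standard error for the 13 protein-coding transcripts and the 2 unnamed entries of rRNA size, in their order along the genome (edgeR; filled symbols have an adjusted p under 0.05, the square marks the minus strand). Mt-nd2 has the lowest estimate, -1.13, and Mt-nd6 is the filled symbol above 0, at 0.53.

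Complex I, NADH dehydrogenase, passes electrons from NADH into the chain, and 5 of its 7 mitochondrial subunits were lower in PX. Mt-nd1, a membrane subunit near the quinone site, ranged from 51.8 to 234 CPM in sham with a median of 123, and from 46.1 to 92.5 CPM in PX with a median of 66.8. All 11 PX libraries lay below the sham median, although sham 46 lay inside the PX range. Its means were 135 ± 56.5 CPM in sham (SD, n = 10) and 67.3 ± 14.4 CPM in PX (SD, n = 11), and the fitted log2 difference was -1.002 ± 0.20 (SE; Benjamini-Hochberg adjusted p = 0.00054 in edgeR). Mt-nd2, a proton-pumping membrane subunit, had 65.04, 258 and 504 CPM in sham (lowest, median and highest) and 80.3, 123 and 166 CPM in PX. It fell by 54.2% in the fit, a log2 fold change of -1.13 ± 0.23 (edgeR adjusted p = 0.00086), with 11 of 11 PX libraries below the sham median. Mt-nd4l and Mt-nd4, membrane subunits whose genes overlap by 7 bp, fell by 1.12 ± 0.24 and 0.94 ± 0.22 on the log2 scale (edgeR adjusted p = 0.00118 and 0.0027). Their medians went from 64.6 to 26.0 CPM and from 166 to 99.0 CPM, and again all 11 PX libraries were below the sham median. Mt-nd5, the largest of these proteins, had 209, 484 and 837 CPM in sham and 162, 232 and 452 CPM in PX, with 4 PX libraries below every sham library. Its log2 fold change was -0.98 ± 0.22 (edgeR adjusted p = 0.00152).

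Mt-nd3, a small complex I subunit, did not pass. It had 25.8, 173 and 312 CPM in sham and 51.0, 122 and 244 CPM in PX, with 8 of 11 PX libraries below the sham median and sham 46 far below all others. Its log2 fold change was -0.38 ± 0.30 (edgeR adjusted p = 0.337), and -0.59 without sham 46 and PX 44 (adjusted p = 0.0297). The spread of its log2 CPM between sham libraries, an SD of 0.97, was the widest of the 13 transcripts.

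Mt-nd6, the complex I subunit read from the other strand, went the opposite way. It had 38.7, 53.4 and 75.5 CPM in sham and 31.9, 83.4 and 108 CPM in PX. Of the PX libraries 10 of 11 lay above the sham median and 6 above every sham library, while PX 44 lay below them all. The means were 54.6 ± 12.7 CPM (SD, n = 10) and 78.9 ± 23.4 CPM (SD, n = 11), and the fitted log2 difference was 0.53 ± 0.17 (SE; Benjamini-Hochberg adjusted p = 0.0205 in edgeR). Scaled by library totals alone, which moved the median of all genes from -0.04 to -0.28 and their split from 2127 lower and 1961 higher to 2253 and 990, it was 0.24 (adjusted p = 0.356). With covariates it was 0.44 (acinar share; adjusted p = 0.106), 0.46 (acinar score; adjusted p = 0.129) and 0.05 (macrophage and mesenchymal scores; adjusted p = 0.97). In the overlap of acinar shares it was 0.48 (adjusted p = 0.28), and there without sham 46 and PX 44, chosen after seeing the data, it was 0.74 (adjusted p = 0.00967). Mt-nd6 shares 23 bp with the end of Mt-nd5 on the opposite strand (MT, positions 13543 to 13565, build not given). The labels name a directional library kit, but the strand setting of the counting is not given in the sources used here. Reads of that stretch may therefore count for either gene. If strand was ignored, reads of the opposite strand over all 519 bp of Mt-nd6 would also count for it. Which strand its counts come from was not tested.

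Mt-cyb, the cytochrome b of complex III, had 197, 679 and 1063 CPM in sham and 265, 419 and 699.8 CPM in PX, with 10 of 11 PX libraries below the sham median. Its log2 fold change of -0.64 ± 0.22 (edgeR adjusted p = 0.0275) lost its call when any 1 of 7 libraries was left out (sham 22, 24, 73 or 74, PX 37, 38 or 41), with adjusted p up to 0.091. It also missed the threshold in limma voom (-0.58, adjusted p = 0.0558) and in the authors' deposited table (-0.58, adjusted p = 0.0557).

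The subunits of complex IV, cytochrome c oxidase, which hands electrons to oxygen, divided. Mt-co3, a structural subunit, had 429, 988 and 1663 CPM in sham and 490, 652 and 891 CPM in PX, and all 11 PX libraries were below the sham median. It fell by 0.67 ± 0.17 on the log2 scale (edgeR adjusted p = 0.00529). Mt-co1, which holds the oxygen-reducing centre, had 1738, 3941 and 5378 CPM in sham and 2204, 2979 and 7649 CPM in PX, with PX 44 above every other library. Its log2 fold change was -0.26 ± 0.21 (edgeR adjusted p = 0.361), and -0.48 without sham 46 and PX 44 (adjusted p = 0.00655). Mt-co2, which takes up the electrons from cytochrome c, had 1537, 2134 and 3061 CPM in sham and 1168, 2180 and 5314 CPM in PX, with 6 PX libraries above and 5 below the sham median. Its estimate of 0.05 ± 0.19 (edgeR adjusted p = 0.861) had no firm direction. It was -0.22 with library totals alone, -0.03 with totals without the 20 most abundant genes, -0.03 and -0.17 in limma voom without and with quality weights, and -0.13 without sham 46 and PX 44, in no case past the threshold. With 1 library left out it ran from -0.09 to 0.17.

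Both mitochondrial subunits of the ATP synthase were lower. Mt-atp8 and Mt-atp6, parts of its membrane sector, overlap by 43 bp on the same strand (MT, positions 7919 to 7961). Mt-atp8, with the fewest counts of the 13 (70 to 581 per library), had 9.51, 45.4 and 69.7 CPM in sham and 11.2, 24.9 and 36.5 CPM in PX, with all 11 PX libraries below the sham median. It fell by 0.86 ± 0.25 (edgeR adjusted p = 0.0118). Mt-atp6 had 198, 400.3 and 864 CPM in sham and 195, 284 and 435 CPM in PX, with 10 of 11 PX libraries below the sham median. It fell by 0.67 ± 0.20 (edgeR adjusted p = 0.0124), and without sham 22 its adjusted p was 0.0507.

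Neither entry of ribosomal RNA size passed. The 958 bp entry (MT, positions 68 to 1025) had 2063, 6203 and 9569 CPM in sham and 2194, 3383 and 7774 CPM in PX, and 9 of 11 PX libraries were below the sham median. Its log2 fold change of -0.63 ± 0.25 lay just outside the threshold (edgeR adjusted p = 0.0577), and was inside it when sham 46, sham 49, PX 66 or PX 70 was left out, with the lowest adjusted p at 0.0185. The authors' deposited table gives it -0.65 with an adjusted p of 0.0495. The 1571 bp entry (positions 1094 to 2664) had a log2 fold change of -0.24 ± 0.26 (edgeR adjusted p = 0.494). The 2 transfer-RNA-sized entries tested had 4 to 113 and 5 to 36 counts per library and log2 fold changes of -0.33 and -0.54, neither past the threshold (edgeR adjusted p = 0.562 and 0.141). In the authors' deposited table, Mt-nd1, Mt-nd2, Mt-nd4l, Mt-nd4 and Mt-nd5 had log2 fold changes from -1.01 to -0.85 and Mt-nd6 0.48.

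The make-up of the mitochondrial messages changed as well, a measure that does not depend on the scaling between libraries. The parts share the same total, so a rise of one lowers the others, and their tests are not independent. By level, no complex IV transcript was called higher in PX. Complex I genes made up from 10.7% to 16.0% of the protein-coding mitochondrial counts in sham (median 13.7%) and from 7.02% to 12.3% in PX (median 9.81%). All 11 PX libraries were below the sham median and 6 below every sham library. The means were 13.5% ± 1.80 (SD, n = 10) and 10.1% ± 1.48 (SD, n = 11; two-sided permutation test, adjusted p = 0.00091 over 16 library measures). Complex IV genes made up 75.04% ± 3.41 in sham and 80.3% ± 2.96 in PX (SD, n = 10 and n = 11; adjusted permutation p = 0.0058), and all 11 PX libraries were above the sham median. Within complex IV, the part of Mt-co2 went from 23.5% ± 4.34 to 29.0% ± 3.21 and that of Mt-co3 from 10.6% ± 1.19 to 8.87% ± 1.29 (SD, n = 10 and n = 11). Complex V genes went from 4.88% ± 0.794 to 4.01% ± 0.585 (adjusted permutation p = 0.019), with all PX libraries below the sham median. PX 44 had the lowest PX parts of complexes I and V, 7.02% and 2.87%, and the highest of complex IV, 85.8%. Without PX 44 and sham 46, complex I had 13.8% in sham and 10.4% in PX (exact permutation test, adjusted p = 0.00035). Complex IV then had 74.4% and 79.7% (adjusted p = 0.0013), and complex V 4.92% and 4.12% (adjusted p = 0.025). Mt-cyb, alone for complex III, went from 6.62% ± 1.13 to 5.62% ± 1.11 (adjusted permutation p = 0.081). Mt-nd6 rose as a part of these counts, from 0.613% ± 0.309 to 1.09% ± 0.359 (SD, n = 10 and n = 11; adjusted permutation p = 0.019). Its highest sham library was sham 46, at 1.32%, and its lowest PX library PX 44, at 0.197%. Without both, its parts were 0.534% ± 0.193 (SD, n = 9) and 1.18% ± 0.216 (SD, n = 10, exact permutation test, adjusted p = 0.00035). Leaving out these contrary ends, chosen after seeing the data, widens the difference by itself.

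The part of complex I genes was also compared in smaller sets of libraries. In the overlap of acinar shares (5 sham and 7 PX libraries) it was 12.7% ± 1.63 against 10.2% ± 1.80 (SD; exact permutation p = 0.033, adjusted p = 0.17), with sham holding the higher acinar share. The differences of PX from sham in the other parts were 3.18 percentage points for complex IV, -0.38 for complex V and 0.28 for Mt-nd6 in that overlap, none past the threshold (exact permutation p = 0.15, 0.36 and 0.22). With the 8 PX animals of BG up to 121 it was 10.2% ± 1.58 against 13.5% ± 1.80 in all sham (SD, n = 8 and n = 10; exact permutation test, adjusted p = 0.0056).

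**Figure D4:**
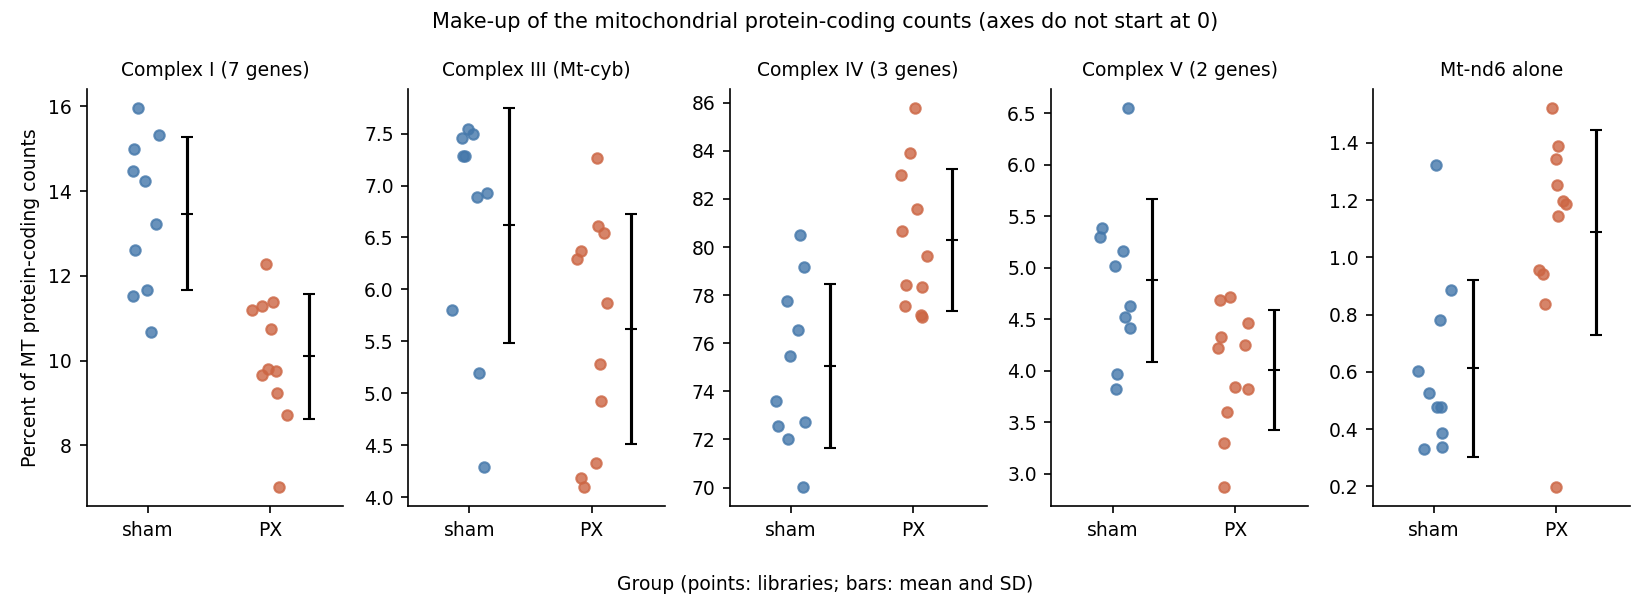
Part of the protein-coding mitochondrial counts taken by the genes of complexes I, III, IV and V and by Mt-nd6 alone (percent, axes not from 0), with 1 point per library and the mean and SD beside the points. The PX points lie lower for complex I (mean 10.1% against 13.5%) and higher for complex IV (80.3% against 75.04%), and the lone low PX point for Mt-nd6 is PX 44.

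Acinar RNA and BG were set beside these transcripts. In a fit with the group and the acinar share together, where 2.41% of all genes fell and 6.7% rose with the acinar share, 0 of the 17 mitochondrial entries were called by edgeR in either direction, 1 had an unadjusted p under 0.05, and limma voom called 0. The slopes of the 13 protein-coding transcripts ran from -0.18 to 0.08 on the log2 scale per 10 percentage points of acinar share, with the lowest adjusted p, 0.191, for Mt-nd5. Without PX 65, which had the highest acinar share, the median slope of the protein-coding transcripts went from -0.14 to -0.24 and that of Mt-nd5 to -0.32 (edgeR adjusted p = 0.161), with 5 entries at an unadjusted p under 0.05 and 0 called. With library totals alone as the scaling, 16 entries fell with the acinar share, but so did 74.6% of all genes, whose median slope moved from -0.01 to -0.29. The group difference in that joint fit called 6 mitochondrial entries lower and 0 higher, where 8.85% of all genes were lower and 10.9% higher. With the acinar score (mean log2 CPM of the markers) it called 4 lower and 0 higher, where 6.94% of all genes were lower and 9.76% higher. Mt-nd1, Mt-nd2, Mt-nd4l and Mt-nd5, all of complex I, were the 4. In the overlap of acinar shares 0 were called by edgeR and 4 had an unadjusted p under 0.05, where 0.702% of all genes were lower and 3.96% higher. There without sham 46 and PX 44, 5 were lower (Mt-nd1, Mt-nd2, Mt-nd4l, Mt-nd5 and Mt-co3) and Mt-nd6 higher, beside 3.54% and 10.7% of all genes. With covariates for the macrophage and mesenchymal scores, 0 mitochondrial entries were called, 1 had an unadjusted p under 0.05, and over all genes only 2 were called lower and 3 higher. In that fit the median log2 fold change of the 13 protein-coding transcripts was -0.09, with 7 of 13 below 0. Without these covariates it was -0.67, with 11 of 13 below 0. The macrophage share of the groups does not overlap, so that fit leaves little of the group difference to test. Group and macrophage content cannot be told apart here.

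Within each group, the mitochondrial share of all counts was correlated with the acinar share, and of the 4 coefficients only Spearman's rho in sham passed the adjustment. Pearson's r was -0.64 in sham (n = 10; permutation p = 0.024, adjusted p = 0.19 over 12 relations) with Spearman's rho -0.85 (permutation p = 0.0029, adjusted p = 0.035). In PX r was -0.65 (n = 11; permutation p = 0.032, adjusted p = 0.19) and rho -0.65 (permutation p = 0.037, adjusted p = 0.22). Leaving out the 2 libraries farthest from the median acinar share gave r = -0.68 in sham and -0.51 in PX. Both shares have the same total, so a rise of one lowers the other. With the acinar markers out of the total, r was -0.32 in sham and -0.42 in PX (permutation p = 0.43 and 0.19).

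BG varied mainly within PX, from 101 to 174, against 82 to 104 in sham. Fitted within the 11 PX libraries over 11196 genes, edgeR called 0% of all genes in either direction. It called 0 of the 15 mitochondrial entries tested, none of which had an unadjusted p under 0.05. DESeq2 and limma voom also called 0 of these entries. Over all genes DESeq2 called 0.054% lower and 0.098% higher, and limma voom 0%. The slopes of the protein-coding transcripts ran from -0.07 for Mt-cyb (± 0.05, SE) to 0.02 for Mt-nd6 (± 0.06) on the log2 scale per 10 units of BG. For the mitochondrial share of all counts, Pearson's r with BG was -0.32 in PX (permutation p = 0.35), -0.09 without PX 65 and PX 41, with rho -0.26 (p = 0.44), and 0.36 in sham (permutation p = 0.29).

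**Figure D5:**
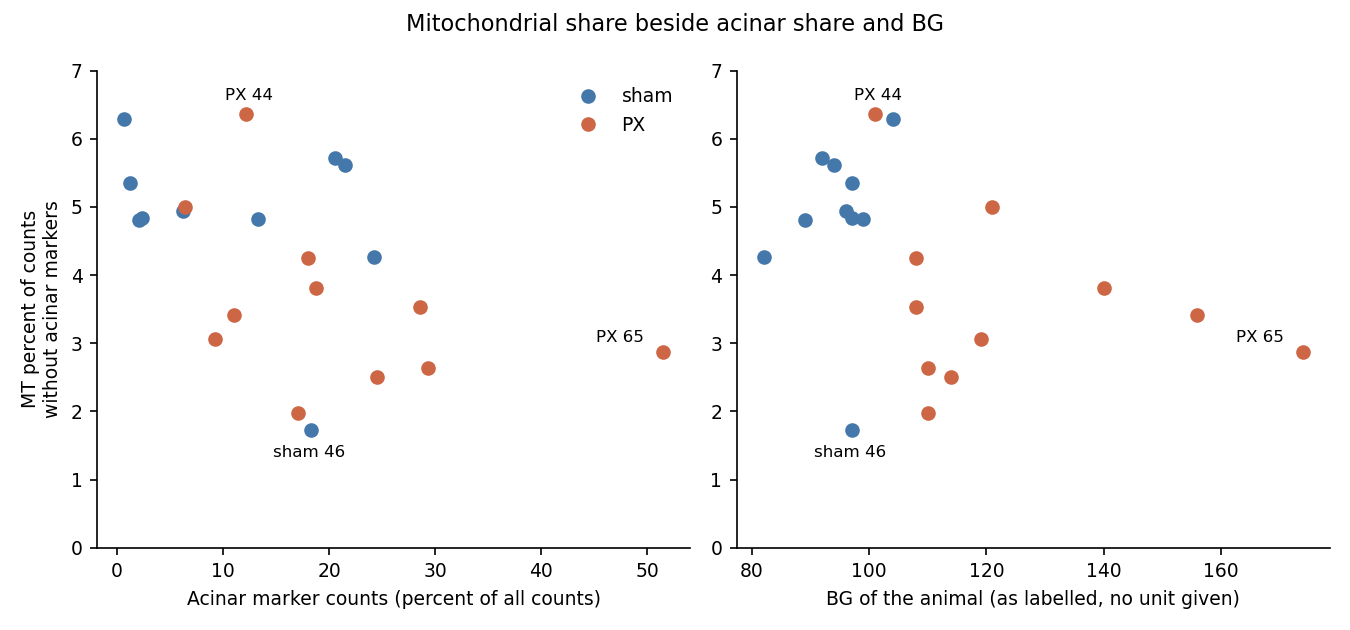
Mitochondrial share of the counts without acinar markers against the acinar share (left) and BG (right), 1 point per library (sham blue, PX orange). Of the 11 PX points, 9 lie below every sham point except sham 46, and the PX points at BG of 140 to 174 are no lower than several of those at BG up to 121.

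Nuclear genes of the same machinery were measured beside the mitochondrial transcripts. The 77 nuclear respiratory chain genes took 0.444% ± 0.0548 of all counts in sham and 0.447% ± 0.0780 in PX (SD, n = 10 and n = 11; permutation p = 0.94). The log2 ratio of mitochondrial to nuclear respiratory chain counts was 1.26 ± 0.615 in sham and 0.654 ± 0.506 in PX (SD; adjusted permutation p = 0.048), with 10 of 11 PX libraries below the sham median, but it missed the threshold in 16 of 21 comparisons with 1 library left out. Without both sham 46 and PX 44 the ratio was 1.42 ± 0.410 (SD, n = 9) and 0.53 ± 0.311 (SD, n = 10, exact permutation test, adjusted p = 0.00035). Sham 46 had the lowest ratio in sham and PX 44 the highest in PX, so this choice widens the difference by itself.

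Of 205 tested nuclear genes for mitochondrial gene expression and the respiratory chain, 3 fell and 14 rose in edgeR, 1.46% and 6.83% of them, both below the shares over all genes. Their median log2 fold change was 0.18. Neither count is firm. The count that rose was 0 with library totals alone and from 3 (without PX 65) to 44 (without PX 37) with 1 library left out. Over all genes 7.54% rose with library totals alone, 13.1% without PX 65 and 18.4% without PX 37. The count that fell was from 0 to 7 with 1 library left out, where 9.85% to 17.1% of all genes fell. It was 1 with the acinar share as a covariate, where 8.85% of all genes fell. Among 17 genes of transcription and replication, Twnk, the helicase that unwinds mitochondrial DNA, fell from 13.1 ± 2.33 to 9.56 ± 2.31 CPM (SD, n = 10 and n = 11), a log2 fold change of -0.46 ± 0.14 (edgeR adjusted p = 0.017). Tfam, which packs mitochondrial DNA and starts its transcription, and Polrmt, the mitochondrial RNA polymerase, had -0.27 and -0.30 and did not pass (edgeR adjusted p = 0.053 and 0.0735). Of 21 genes of RNA processing and stability, Dhx30, a helicase of mitochondrial RNA granules, fell by 0.32 (edgeR adjusted p = 0.0125), and Slirp, which stabilises mitochondrial messages with its partner Lrpprc, rose by 0.61 (adjusted p = 0.0474). Of 11 translation factors, Taco1, which activates translation of the Mt-co1 message, fell by 0.31 (edgeR adjusted p = 0.0374). None of 8 regulators of mitochondrial biogenesis passed, and their log2 fold changes ran from -0.44 to 0.49 with a median of -0.08. On the positive side, Ppargc1a, the coactivator PGC-1alpha, had 0.31 (edgeR adjusted p = 0.366) and Esrra, the receptor ERRalpha, 0.49 (adjusted p = 0.0692). Of 74 mitochondrial ribosome genes, Mrpl17 rose by 0.57 (edgeR adjusted p = 0.00448), and the median was 0.17.

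Of the 74 nuclear subunits of the complexes tested, 12 rose in PX and 0 fell; the 16.2% that rose is near the 14.9% over all genes. For complex I, 6 of 37 rose, with a median log2 fold change of 0.29. Ndufb11, an accessory subunit, went from 29.95 ± 3.97 to 45.1 ± 12.8 CPM (SD, n = 10 and n = 11), a log2 fold change of 0.59 ± 0.15 (edgeR adjusted p = 0.00372). In complex II, which has no mitochondrially encoded subunit, 1 of 4 rose (the iron-sulfur subunit Sdhb, log2 fold change 0.34), in complex III 1 of 9 (Uqcrh, 0.70), in complex IV 2 of 10 (Cox7b, 0.63, and Cox6b1, 0.65) and in complex V 2 of 14 (Atp5pd, 0.49, and Atp5mc3, 0.28). None of these lists had a gene that fell, and the adjusted p of the 6 genes ran from 0.0292 to 0.0391 in edgeR. The medians of these lists lay between 0.29 and 0.39, but with library totals alone between -0.002 and 0.12. When scores for macrophage and mesenchymal markers entered the fit, the medians were -0.30, -0.18, -0.41, -0.54 and -0.49 for complexes I to V, and edgeR called 0 of these genes. With the acinar share as a covariate 2 of the 205 genes rose and 1 fell, beside 10.9% and 8.85% of all genes. The acinar share was above the sham median in 9 of 11 PX libraries and the macrophage share in all 11, and their part in these differences was not tested beyond these fits.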

How the data were processed

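RNA of rat islets was sequenced in 10 sham and 11 PX libraries, grouped by their titles. The submitters' processing notes name Subread, featureCounts, limma and FastQC. Not given in the sources used here are versions, genome build, annotation, aligner settings and the strand setting of the counting. Per the file headers, the authors deposited raw read counts per gene in the featureCounts layout, with chromosome, start, end, strand and length of each entry. The authors' deposited table gives a log2 fold change and an adjusted p-value per gene. Reads shared by overlapping mitochondrial genes, or by copies of mitochondrial DNA in the nuclear genome, may be counted for either or dropped; this was not tested.

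Genes were kept by filterByExpr of edgeR 4.0.16 (R 4.3.3), given the group, at a minimum count of 10 and a minimum total of 15, scaled by TMM and fitted over the whole table with robust quasi-likelihood models, with Benjamini-Hochberg adjustment over all genes tested and a threshold of 0.05. CPM are TMM-scaled, and CPM per kb divide by the deposited length. Unnamed entries up to 100 bp were called transfer-RNA-sized. Library measures were compared by two-sided permutation tests of means (100000 resamples; all splits, called exact, where a group had fewer than 10 libraries), adjusted over 16 measures. Each standard error was derived from the F statistic and its fold change. The fits were tested on simulated counts. Named genes were all MT entries of protein-coding or ribosomal RNA size, any other MT entry called, and up to 4 genes of each nuclear list by p; further called members of these lists are given by count, and a gene that the rule names is not reported here. The members and gene lists were chosen with earlier results of these data known. Alternatives were DESeq2 1.42.0, limma 3.58.1 voom, other scalings and filters, covariates, and subsets of libraries; those without both sham 46 and PX 44, and each library left out for the library measures and the nuclear genes, were added after seeing the data.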

Additional observations from a re-analysis of the deposited data

Results flagged for a closer look

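Of 31 values examined over the 10 sham libraries, 11 had 1 library far from the rest relative to the range of the group, and in each of them that library was sham 46. Chance alone would give such a gap in about 1 group in 20, and these values are not independent of each other. In the mitochondrial share of counts without acinar markers, sham 46 had 1.74% where the next lowest sham library had 4.26%. Its log2 CPM was lowest for Mt-co1 (10.76, next 11.73), Mt-nd2 (6.02, next 7.40), Mt-nd3 (4.69, next 6.91), Mt-nd4l (3.85, next 5.52), Mt-atp8 (3.25, next 4.86) and Mt-cyb (7.62, next 8.81). The same held for the 958 bp entry (11.01, next 12.15) and the 1571 bp entry (12.61, next 14.17). Its macrophage marker share was the highest of the group, 0.0185% against 0.00917% for the next, and so was its mesenchymal share, 0.0912% against 0.0545%. The part of any of these in the others was not tested.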

How the results depend on the processing

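With each library left out in turn, the count of mitochondrial entries lower in PX ran from 7 to 10, with 1 higher in every fit. Over all genes 9.85% to 17.1% were lower and 13.1% to 19.8% higher in these fits. The difference in the mitochondrial share of all counts ran from -1.76 to -1.22 percentage points, with an unadjusted permutation p up to 0.044. The log2 ratio to nuclear respiratory chain counts was judged by adjusted p instead, so their stability cannot be compared. Over all libraries the permutation p was 0.021 for the share and 0.024 for the ratio, and the adjusted p 0.048 for each. Whether the share would pass the adjusted threshold with 1 library left out was not tested. Mt-nd1, Mt-nd2, Mt-nd4l, Mt-nd4, Mt-nd5, Mt-co3, Mt-atp8 and Mt-nd6 kept their calls in all 21 such fits. Other scalings, filters and tools gave 9 to 13 lower. The count of 13 came without a filter, where 35 mitochondrial entries were tested and 11.3% of all genes were lower. It also came in limma voom with quality weights, where 28.3% of all genes were lower. The calls were fewer with covariates for other cells and in the overlap of acinar shares. They were 4 lower and 0 higher with the acinar score, 6 and 0 with the acinar share, and 0 and 0 with the macrophage and mesenchymal scores. In the overlap they were 0 and 0, or 5 and 1 there without sham 46 and PX 44, chosen after seeing the data. The median log2 fold change of the 13 protein-coding transcripts was -0.67 with all libraries, -0.46 in the overlap and -0.71 there without both. The cause was not tested. With the 8 PX animals of BG up to 121 the counts were 6 and 1, beside 7.24% and 12.04% of all genes. In that fit Mt-atp8, Mt-atp6 and Mt-cyb lost their calls (edgeR adjusted p = 0.0528, 0.0714 and 0.153). With the macrophage and mesenchymal scores Mt-atp8 and Mt-cyb turned to 0.11 and 0.27. Library totals alone gave 10 lower and 0 higher, beside 17.2% and 7.54% of all genes. With that scaling 16 entries fell with the acinar share, beside 74.6% of all genes. The acinar slopes were then -0.29 for Mt-nd3 and -0.21 for Mt-nd6, which were above 0 with TMM.

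The difference in the mitochondrial share was -1.36 (permutation p = 0.057) with the 20 most abundant nuclear genes out of the total, -1.28 with the 8 PX animals of BG up to 121 (exact permutation p = 0.063) and -0.086 in the overlap of acinar shares (exact permutation p = 0.92), or -0.97 there without sham 46 and PX 44 (exact permutation p = 0.12). Without both of these libraries, chosen after seeing the data, the differences were -1.88 for the share without acinar markers, -0.53 for the protein-coding share and -1.13 for the part of complex III, all 3 then past the threshold. With 1 library left out they ran from -1.60 to -1.09, from -0.461 to -0.301 and from -1.26 to -0.848, and the log2 ratio to nuclear respiratory chain counts from -0.76 to -0.51. The correlation of the mitochondrial with the macrophage share in sham went from -0.59 to 0.87 without sham 46 and sham 21. Of the 205 nuclear genes, 2 were lower and 24 higher with DESeq2 size factors (0.976% and 11.7%, beside 12.5% and 16.6% of all genes). The counts were 4 and 0 with library totals (1.95% and 0%, beside 17.2% and 7.54%). With the acinar share they were 1 and 2 (0.488% and 0.976%, beside 8.85% and 10.9%). With the macrophage and mesenchymal scores they were 0 and 1 (0% and 0.488%, beside 0.0152% and 0.0228%). Without sham 46 and PX 44 they were 7 and 54 (3.41% and 26.3%, beside 18.3% and 22.1%). With 1 library left out they were 0 to 7 and 3 to 44, beside 9.85% to 17.1% and 13.1% to 19.8%. No paired analysis was possible because the groups share no animal number. Among the mitochondrial entries, counts were lowest for those of transfer RNA size, whose median count per library was at most 21. Some nuclear genes were low as well, such as Ppargc1a and Slirp with sham means of 4.88 and 5.63 CPM. The effect of depth was not tested.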
